A study of Mus musculus with 2 samples.

Results

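The genes described here encode the enzymes that attach ubiquitin and its relatives to proteins and the enzymes that take them off again. They were chosen by symbol: a probe set belongs to the group if its single gene symbol starts with Uba and a digit, Ube2, Ube3, Usp and a digit, Uch, or Cul and a digit. Of 80 such probe sets, 4 for 2 symbols ending in x or y were left out, and the other 76, for 57 genes, are the members among 12422 probe sets and 8251 named genes in all. By prefix, 2 probe sets are activating enzymes (2 genes), 29 conjugating enzymes (21 genes), 6 ligases (6 genes) and 39 deubiquitinating enzymes (28 genes). The measured cells were sorted from mouse bone marrow as Lin-c-kit+Sca1+, a fraction without lineage antigens that carries the receptor Kit and the antigen Sca-1 and is enriched for haematopoietic stem and progenitor cells. There were 2 arrays, called sample 1 and sample 2 after their titles, in 1 group with no treatment named, and the RNA of both went through 2 rounds of amplification. Strain, age, sex and the number of animals behind each sample are not given in the sources used here, so the spread between the samples may be technical.

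Ubiquitin is activated by an E1 enzyme, passed to an E2 conjugating enzyme, and placed on a protein with the help of an E3 ligase. Chains of one kind send the protein to the proteasome, while other chains and single ubiquitins act as signals in DNA repair, trafficking and immunity. Related modifiers such as NEDD8, SUMO and ISG15 run through parallel sets of enzymes. Cullins are the scaffolds of the largest ligase family and are themselves switched on by NEDD8. Deubiquitinating enzymes trim, edit or remove the chains. In blood progenitors this system is known for timing the cell cycle and for the turnover of transcription factors.

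Signals are array intensities after quantile normalization, which gives both arrays the same distribution. Each sample has a bacterial level, which is the 90th percentile of its bacterial probe sets, which detect genes absent from mice. It was 12.1 in sample 1 and 8.92 in sample 2. Signals under a floor of 20 were set to 20 before log2, so where 1 signal is under the floor the true fold can be greater, and "at least" stands before it. Differences are log2(sample 1) minus log2(sample 2), so a positive one is higher in sample 1. With 1 array for each sample no gene can be tested, and p-values are left out. Signals of different probe sets cannot be ranked against each other, since probe sets bind with different strength.

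The sorted fraction was checked on its marker genes. Of 7 measured sorting and progenitor genes, 7 had a probe set that passed the bacterial level in both samples, as did 3 of 11 lineage antigen genes. Over all named genes this share was 57.0%. Kit gave 25.8 in sample 1 and 19.3 in sample 2, next to the floor, and Sca-1 was not analysed here. The 3 were Ms4a1, a B cell gene, with 28.2 in sample 1 and 43.5 in sample 2, Ly6g, a granulocyte gene, with 14.1 and 9.26, and Ptprc, which most blood cells express, with 19.8 and 13.7. Of the other 8, Cd4 and Cd5 passed the level in sample 2 alone, and Cd3d, Cd3e, Cd3g, Cd8a, Cd8b1 and Itgam passed it in neither sample. The samples differed in progenitor genes of different lineages. The summed signal of 5 probe sets for the myeloid progenitor genes was 2693 in sample 1 and 760 in sample 2. Most of the sum in sample 1 came from 1 probe set of Mpo, with 1862 in sample 1 and 288 in sample 2. All 5 were higher in sample 1, by sizes that differed, with Prtn3 at 459 and 342, a 1.34-fold difference. For the early lymphoid genes the summed signal of 6 probe sets was 149 in sample 1 and 584 in sample 2. Dntt gave most of the early lymphoid sum, with 83.3 and 374 by the 1 probe set above the level in both samples. Rag1 had 44.25 and 48.4 by its probe set above the level, and Il7r, with 6.6 and 35.9, passed in sample 2 alone. The erythroid genes went in both directions, with the alpha globin gene Hba-a1 at 30.1 in sample 1 and 670 in sample 2 and the carbonic anhydrase gene Car1 at 488 in sample 1 and 75.9 in sample 2. Of 9 probe sets for sorting and progenitor genes above the level, 5 were 2-fold or more apart (55.6%, beside 19.9% of all such probe sets). Of these, 4 for Flt3, Lyl1 and Meis1 were higher in sample 2 and 1 for Myb was higher in sample 1. In such samples fewer cells of a type and less RNA per cell cannot be told apart. The part of such differences in the values below was not tested.

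Members were above the bacterial level more often than probe sets at large, with a gap that depended on where the level was set. Of the 76, 47 (61.8%) were above the bacterial level in both samples, beside a background of 49.3% over all 12422 probe sets. By gene, 41 of 57 (71.9%) had at least 1 such probe set, beside 57.0% of all named genes. With both signals required to exceed the floor of 20, the count was 30 of 76 (39.5%), beside 34.0% of all probe sets. The gap between members and background was then smaller. With the bacterial level at the 50th percentile the count was 62 of 76 (81.6%), beside 78.9%, and the gap was smaller still. At the highest bacterial probe set it was 45 (59.2%), beside 45.2%. The share above the bacterial level was 20 of 29 for conjugating enzymes, 5 of 6 for ligases and 21 of 39 for deubiquitinating enzymes. Of the 29 that were not above it in both samples, 14 were above it in neither, 4 in sample 1 alone and 11 in sample 2 alone. Over all probe sets the excess was also in sample 2, with 3677 of 6304 in neither, 874 in sample 1 alone and 1753 in sample 2 alone.

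Most measured members were within 2-fold between the samples, and their median difference was 0. Of the 47 measured in both samples, 7 (14.9%) were 2-fold or more apart, beside a background of 19.9%. Of these, 2 were higher in sample 1, beside a background of 10.5%, and 5 were higher in sample 2, beside a background of 9.40%. That median was also 0 over the 6118 probe sets of the same standing. Without the floor it was 0.027 over the 47 and 0.079 over the 6118. The median absolute difference was 1.33-fold for the members and 1.35-fold for all, and the replicate SD on the log2 scale was 0.54 for the members and 0.58 for all. Where both signals were above the floor, 4 of 30 members (13.3%) and 22.6% of all 4218 probe sets were 2-fold or more apart. The gap to the background depended on the processing. With no floor the shares were 23.4% of members and 25.0% of all, with at least 1 sample above the bacterial level 14.5% and 15.6%, and with no filter 11.8% and 10.97%.

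**Figure D1:**
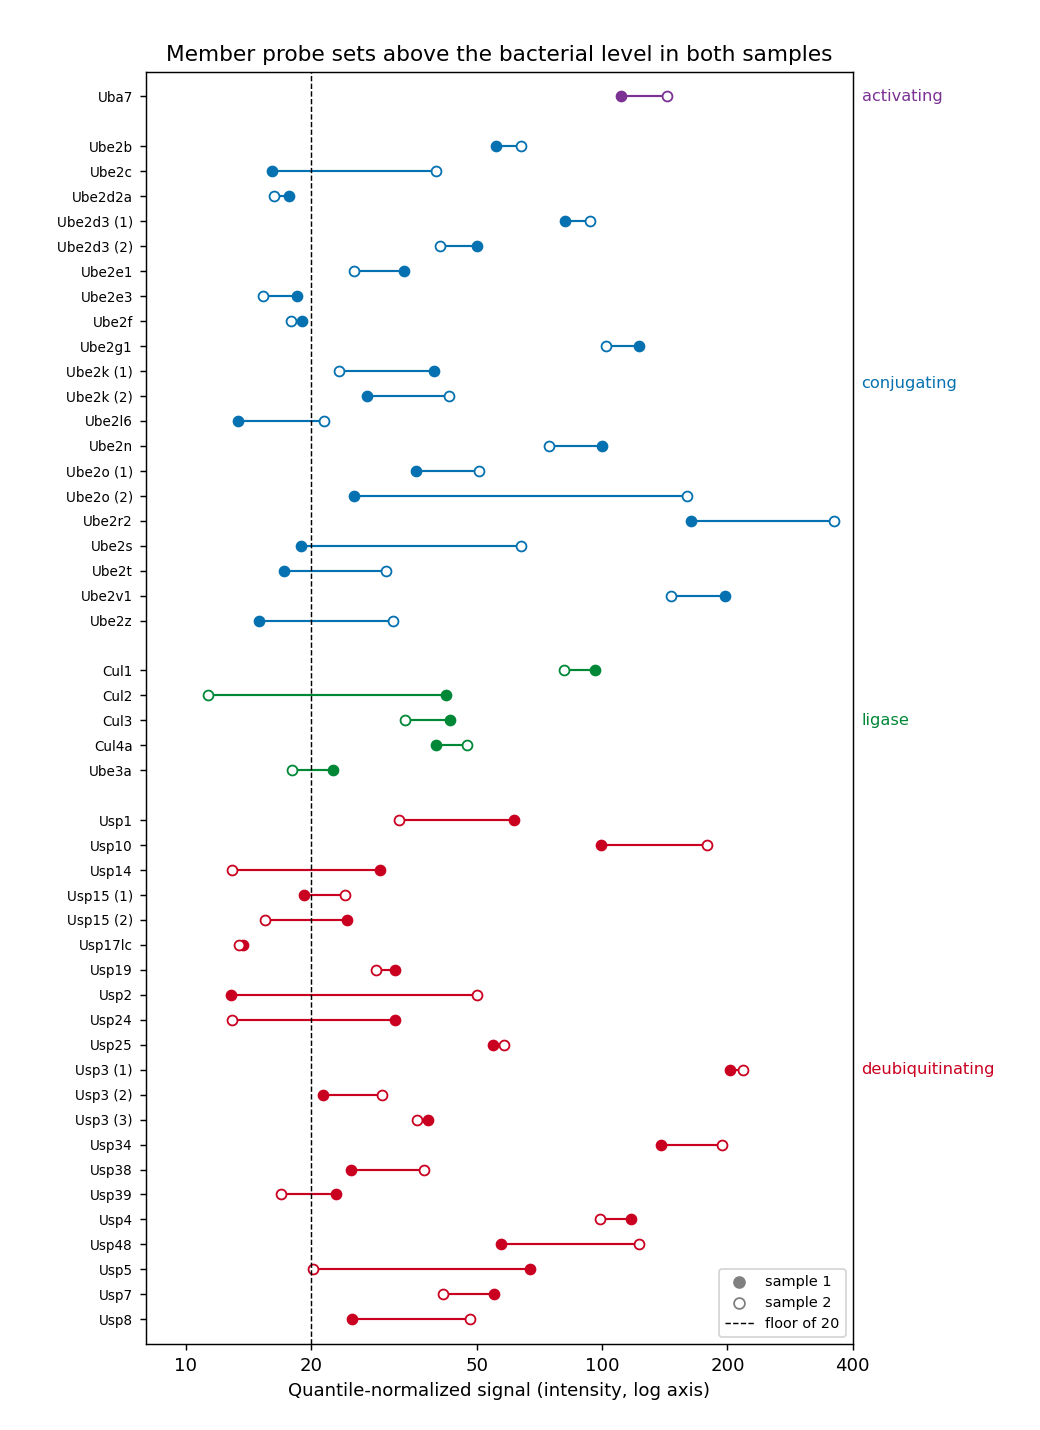
Quantile-normalized signal (log axis) of each of the 47 member probe sets above the bacterial level in both samples, with sample 1 as filled and sample 2 as open circles joined by a line, the floor of 20 dashed, and numbers in brackets marking different probe sets of 1 gene. The widest gaps are those of Ube2o (25.3 in sample 1 and 159 in sample 2), Usp2 (12.8 and 50.1), Cul2 (42.2 and 11.3), Ube2s (18.9 and 63.9) and Usp5 (67.2 and 20.2).

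**Figure D2:**
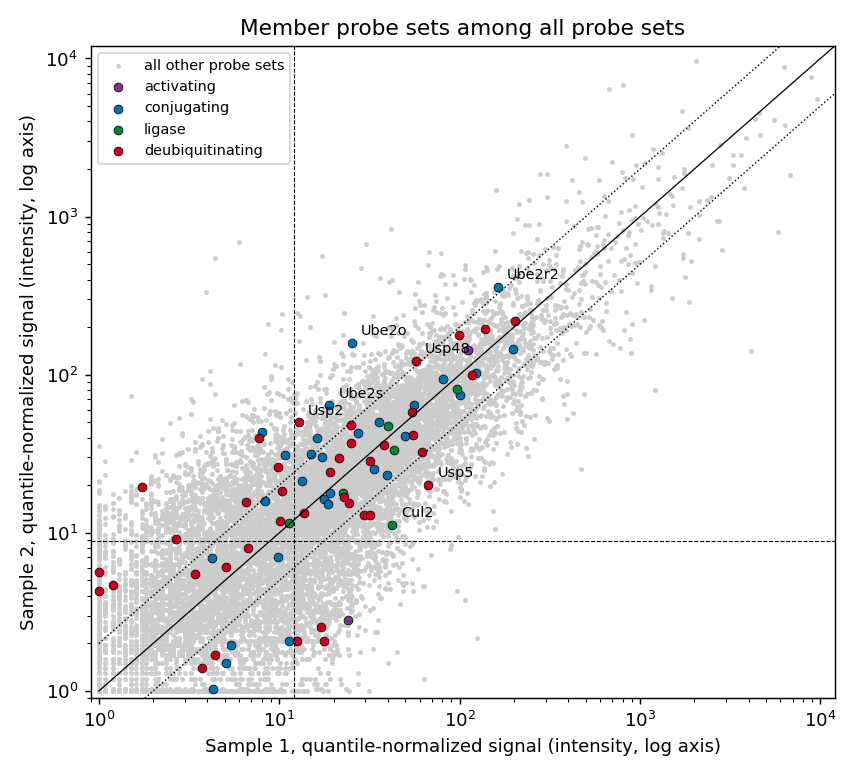
Signal in sample 1 (x axis) against sample 2 (y axis), both on log axes with values under 1 drawn at 1, for the 76 members by role and for all other probe sets in grey. The solid line marks equal signals, the dotted lines 2-fold, and the dashed lines the bacterial levels of 12.1 and 8.92; the 7 members that are 2-fold or more apart and above both bacterial levels are named.

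Both activating enzymes serve modifiers other than ubiquitin. Uba7, which activates ISG15, gave 111 in sample 1 and 143 in sample 2 (log2 signals averaging 6.98 ± 0.26, SD, n = 2). Uba3, the catalytic subunit of the enzyme that activates NEDD8, had 23.98 in sample 1 and 2.80 in sample 2, and was not above the bacterial level in the second. Their later partners gave weak signals. Ube2l6, the E2 for ISG15, had 13.4 in sample 1 and 21.4 in sample 2. Usp18, which removes ISG15, had 1.19 and 4.70, and Isg15 itself had 6.7 and 12.8. Of the ISG15 genes named here, Uba7 and Ube2l6 were above the bacterial level in both samples, while Usp18 and Isg15 were not. For NEDD8, the E2 gene Ube2f had 19.0 in sample 1 and 17.9 in sample 2, and the modifier gene Nedd8 had 26.1 and 25.6 by the probe set with the higher signals. Both were above the bacterial level, Ube2f under the floor in both samples.

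Among conjugating enzymes, the pair that works with the anaphase-promoting complex was higher in sample 2. Ube2c starts ubiquitin chains on the targets of this mitotic ligase, and Ube2s lengthens them. Ube2s had 18.9 in sample 1 and 63.9 in sample 2, at least 3.20-fold higher in sample 2 (log2 signals averaging 5.16 ± 1.19, SD, n = 2). Ube2c had 16.1 in sample 1 and 39.8 in sample 2, at least 1.99-fold higher in sample 2, just short of the 2-fold line. In sample 1 both signals were above the bacterial level but under the floor. Ube2s stayed past 2-fold under 3 of 5 alternatives of scaling and floor, and Ube2c was past it under 2 of 5. The name of the 1 Ube2c probe set ends in _r_at, a kind dropped in 1 of the processing checks. With a floor of 32 the differences were -0.999 for Ube2s and -0.32 for Ube2c. The ligase they serve had no common direction, with 4 of 9 probe sets higher in sample 1 and 5 higher in sample 2. Its activator gene Cdc20 had 315 in sample 1 and 148 in sample 2, and its subunit genes Anapc5, with 647 and 285, and Cdc26, with 49.5 and 19.7, were also 2-fold or more higher in sample 1. The 5 higher in sample 2 were all within 2-fold, among them Cdc16 with 49.3 in sample 1 and 78.5 in sample 2. Anapc11, the RING subunit that receives the E2, had 179 in sample 1 and 196 in sample 2.

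The 250 bases before the RefSeq start of both genes (GRCm38.p6) are shown because both were higher in the same sample, with matches in capitals. The motifs searched on both strands were TTTGAA, known as the CHR of genes of late cell cycle phases, its variant TTCGAA, added after the sequences were seen, and CCAAT.
Ube2c, chr2:164769679-164769928, plus strand: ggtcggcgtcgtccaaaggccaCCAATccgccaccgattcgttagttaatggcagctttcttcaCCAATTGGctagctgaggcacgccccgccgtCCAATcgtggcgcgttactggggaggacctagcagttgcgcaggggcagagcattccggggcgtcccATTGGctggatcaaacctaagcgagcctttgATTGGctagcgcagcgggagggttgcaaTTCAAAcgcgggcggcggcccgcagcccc
Ube2s, chr7:4812341-4812590, minus strand: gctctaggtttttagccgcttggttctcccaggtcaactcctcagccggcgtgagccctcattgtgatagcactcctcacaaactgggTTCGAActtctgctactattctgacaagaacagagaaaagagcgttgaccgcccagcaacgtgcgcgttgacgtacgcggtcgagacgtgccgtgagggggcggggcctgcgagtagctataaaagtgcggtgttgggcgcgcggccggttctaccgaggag
The Ube2c window held 6 matches to CCAAT, of which 1 pair overlaps in CCAATTGG, and 1 match to TTTGAA, read on the other strand as TTCAAA. The Ube2s window held 1 match to TTCGAA and none to the others. Over 32851 promoter windows of this length, 16.0% held TTTGAA, 1.34% held TTCGAA and 33.9% held CCAAT. A match is a description of the letters in the window and not a binding site.

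The other conjugating enzymes past 2-fold, Ube2r2 and Ube2o, were also higher in sample 2. Ube2r2, a relative of Cdc34 that works with cullin ligases, had 163 in sample 1 and 361 in sample 2, a 2.21-fold difference (log2 signals averaging 7.92 ± 0.81, SD, n = 2). It stayed 2-fold or more apart under 5 of 5 alternatives of scaling and floor. Ube2o, a large enzyme that combines E2 and E3 activity and is known to clear proteins from maturing red cells, had 25.3 in sample 1 and 159 in sample 2 by one probe set, a 6.31-fold difference. Its other probe sets did not match this, with 35.6 and 50.6 by one and 4.30 and 1.03 by the third. The name of the first ends in _f_at, which marks a set whose probes are shared by related sequences. Of the erythroid genes given above, Hba-a1 was higher in the same sample and Car1 was higher in the other. The part of red cell content in the Ube2o value was not tested.

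Other conjugating enzymes above the floor in both samples were within 2-fold. Ube2n, which builds chains that signal rather than send proteins to the proteasome, had 100.1 in sample 1 and 74.6 in sample 2. Its partner Ube2v1, which has no active-site cysteine, had 197 and 146, a difference in the same direction of 1.35-fold against 1.34-fold for Ube2n. The alternative partner Ube2v2 was not above the bacterial level in either sample by either of its probe sets. Ube2g1 had 123 in sample 1 and 102 in sample 2. Ube2b, a mammalian Rad6 enzyme that acts at stalled replication forks, had 55.7 in sample 1 and 63.9 in sample 2, while its near relative Ube2a, with 5.06 and 1.498, was not above the bacterial level in either sample. Ube2d3, a broadly used E2, had 81.2 and 93.3 by one probe set and 49.95 and 40.8 by another. Ube2e1 had 33.3 in sample 1 and 25.3 in sample 2. These genes belong to families of similar sequence, and how far their probes take up related transcripts was not tested.

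The remaining conjugating enzymes were near the floor or had probe sets that disagreed. Ube2k had 39.5 and 23.3 by one probe set, higher in sample 1, and 27.2 and 42.8 by another, higher in sample 2. Ube2t, the E2 of the Fanconi anaemia pathway, had 17.2 in sample 1 and 30.2 in sample 2, and Ube2z had 15.005 and 31.4 by one of its probe sets. Ube2e3, with 18.5 and 15.3, and Ube2d2a, with 17.7 and 16.3, were above the bacterial level but under the floor. A further Ube2d2a probe set, also of the _f_at kind, had 8.05 in sample 1 and 43.6 in sample 2 and was above the level in sample 2 alone. Ube2h, with 10.8 and 31.1 by one probe set and 8.33 and 15.8 by the other, passed in sample 2 alone, and Ube2w was above the level in neither sample.

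Of the 5 cullins, 4 were above the bacterial level in both samples, beside 57.0% of all named genes. Of these, 1, Cul2, was more than 2-fold apart. With Ube3a included, that was 1 of 5 ligase probe sets above the level (20%), near the background of 19.9%. Cul2, the scaffold that holds the von Hippel-Lindau protein, had 42.2 in sample 1 and 11.3 in sample 2, at least 2.11-fold higher in sample 1 (log2 signals averaging 4.86 ± 0.76, SD, n = 2). It stayed past 2-fold under 3 of 5 alternatives, and with a floor of 32 the difference was 0.40. Cul1, the scaffold of the Skp1 and F-box ligases, had 96.3 in sample 1 and 80.8 in sample 2. Cul3, which binds BTB-domain adaptors, had 43.2 and 33.6. Cul4a, which works through Ddb1, had 39.9 in sample 1 and 47.3 in sample 2. Cul7 had 11.4 and 11.5 and passed the bacterial level only in sample 2, where that level is lower. Ube3a, a HECT-type ligase altered in human Angelman syndrome, had 22.6 in sample 1 and 18.0 in sample 2.

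The adaptors and partners of the cullins were higher in sample 1 more often than in sample 2, at sizes mostly under 2-fold. Of 12 probe sets above the bacterial level, for 10 genes, 8 were higher in sample 1, 3 higher in sample 2 and 1 was under the floor in both. Over all 6118 such probe sets, 2835 were higher in sample 1 and 2604 in sample 2. The median difference was 0.40 for the 12, beside 0 for all. Ddb1, the adaptor of Cul4a, had 785 in sample 1 and 339 in sample 2 by one probe set, a 2.32-fold difference. It was the only one of the 12 that far apart (8.33%, beside 19.9%). By another Ddb1 had 158 and 89.5, a 1.77-fold difference, and by a further one 15.2 and 2.80, not above the level in sample 2. Skp1, the adaptor of Cul1, had 186 in sample 1 and 106 in sample 2. The COP9 signalosome, which removes NEDD8 from cullins, had 9 probe sets above the level, of which 4 were 2-fold or more apart (44.4%, beside 19.9%), with 2 in each direction. Gps1, at 237 and 109, and Cops6, at 183 and 81.5, were higher in sample 1. Cops7b, at 32.5 and 107, and Cops3, at 47.8 and 98.6, were higher in sample 2. Over all 9, sample 1 had the higher signal in 6 and sample 2 in 3, with a median difference of 0.29.

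Among deubiquitinating enzymes, 3 of the 21 probe sets above the bacterial level were 2-fold or more apart (14.3%, beside 19.9%), in different directions. Usp5, which takes apart free ubiquitin chains, had 67.2 in sample 1 and 20.2 in sample 2, a 3.32-fold difference (log2 signals averaging 5.20 ± 1.23, SD, n = 2). It stayed past 2-fold under 4 of 5 alternatives and differed by 0.93 in log2 units when 32 was added to each signal in place of the floor. Usp48 had 57.2 in sample 1 and 123 in sample 2, 2.15-fold higher in sample 2 (log2 signals averaging 6.39 ± 0.78, SD, n = 2). Usp2 had 12.8 in sample 1 and 50.1 in sample 2, at least 2.50-fold higher in sample 2. Its other probe set had 7.68 and 40.0, in the same direction, and was not counted because it was not above the bacterial level in sample 1. Usp48 stayed past 2-fold under 4 of 5 alternatives and differed by -0.79 with 32 added in place of the floor. Usp2 did so under 3 of 5, with -0.65 for a floor of 32 and -0.87 with 32 added in its place.

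Several more were just short of 2-fold. Usp1, which removes ubiquitin from Fancd2 and Pcna and is known for its role in mouse blood stem cells, had 61.5 in sample 1 and 32.6 in sample 2, a 1.89-fold difference. Usp8, which acts on receptors at endosomes, had 25.0 in sample 1 and 48.2 in sample 2, a 1.93-fold difference. Usp10, an enzyme that stabilises p53 in human cells, had 99.3 in sample 1 and 179 in sample 2, a 1.80-fold difference.

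Of the deubiquitinating enzymes bound to the proteasome, Usp14 and Psmd14 were higher in sample 1, and Uchl5 was not above the bacterial level in both samples. Usp14 had 29.3 in sample 1 and 12.9 in sample 2 by one probe set, at least 1.47-fold higher in sample 1. With a floor of 32 that difference was 0, and it was past 2-fold under 1 of 5 alternatives. By its other probe set Usp14 had 12.5 and 2.06. Uchl5 had 10.05 and 11.9 and passed the bacterial level in sample 2 alone. Psmd14, the metalloprotease of the proteasome lid and not a member by the symbol rule, had 97.4 in sample 1 and 22.0 in sample 2, a 4.44-fold difference. Psmd4, a ubiquitin receptor of the proteasome, had 97.9 in sample 1 and 9.47 in sample 2, at least 4.89-fold higher in sample 1. Vcp, the segregase that pulls ubiquitinated proteins apart, had 476 in sample 1 and 428 in sample 2.

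The other deubiquitinating enzymes above the floor in both samples had close values. Usp3, a histone deubiquitinase, had 203 in sample 1 and 217 in sample 2 by its probe set with the highest signals, and 38.2 and 35.99 and 21.4 and 29.6 by the others. Usp34 had 138 in sample 1 and 194 in sample 2 by one probe set and 17.8 and 2.06 by another. Usp4 had 117 and 99.0, with 0.62 and 5.62 by a further probe set that was above the level in neither sample. Usp7, which removes ubiquitin from Mdm2 and p53, had 55.1 in sample 1 and 41.4 in sample 2, and 17.0 and 2.52 by its other probe set. Usp25 had 54.6 in sample 1 and 58.0 in sample 2. Usp19 had 31.8 and 28.6, with 6.52 and 15.7 by its other probe set. Usp38 had 24.9 and 37.3, with 1.73 and 19.5 by its other probe set. By the probe sets above the bacterial level in both samples, all of these lay within 1.5-fold of equal signals.

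A last set of deubiquitinating enzymes was near the floor or under the bacterial level. Usp24 had 31.8 in sample 1 and 12.9 in sample 2, at least 1.59-fold higher in sample 1. Usp39, a splicing factor without protease activity despite its name, had 23.0 and 16.9 by one probe set and 9.88 and 26.0 by another. Usp15 had 24.4 and 15.4 by one probe set and 19.2 and 24.1 by the other. Usp17lc, one of a cytokine-induced mouse family of near-identical copies whose probes may not tell them apart, had 13.7 and 13.4, under the floor in both samples. Its relative Usp17la, with 3.74 and 1.40, was above the level in neither. Usp12, Usp18, Usp21, Usp22, Usp33 and Usp42 had signals between 1.19 and 8.06 except 0.62 for Usp12 in sample 1, and none was above the bacterial level in both samples. Usp29, an imprinted gene, had 2.68 and 9.15, and Uchl1, a hydrolase abundant in neurons, had 10.3 and 18.4, so both passed in sample 2 alone.

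Probe sets of the same gene often gave different answers, which limits what 1 probe set shows. Of 57 genes, 17 had several probe sets, 15 with 2 and 2 with 3. For 11 of the 17, some probe sets were above the bacterial level in both samples and others were not. In 5 genes more than 1 probe set was above it, namely Ube2d3, Ube2k, Ube2o, Usp3 and Usp15. In 4 of these, all but Ube2o, the probe sets put the higher signal in different samples. For Ube2d3, Usp3 and Usp15 each difference was smaller than the replicate SD of 0.54, while those of Ube2k were -0.65 and 0.76. The same counts were not made over all genes with several probe sets. Of the 17, Usp2 was the only one in which a pair of probe sets both put the floored signal of sample 2 at 2-fold or more over that of sample 1.

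**Figure D3:**
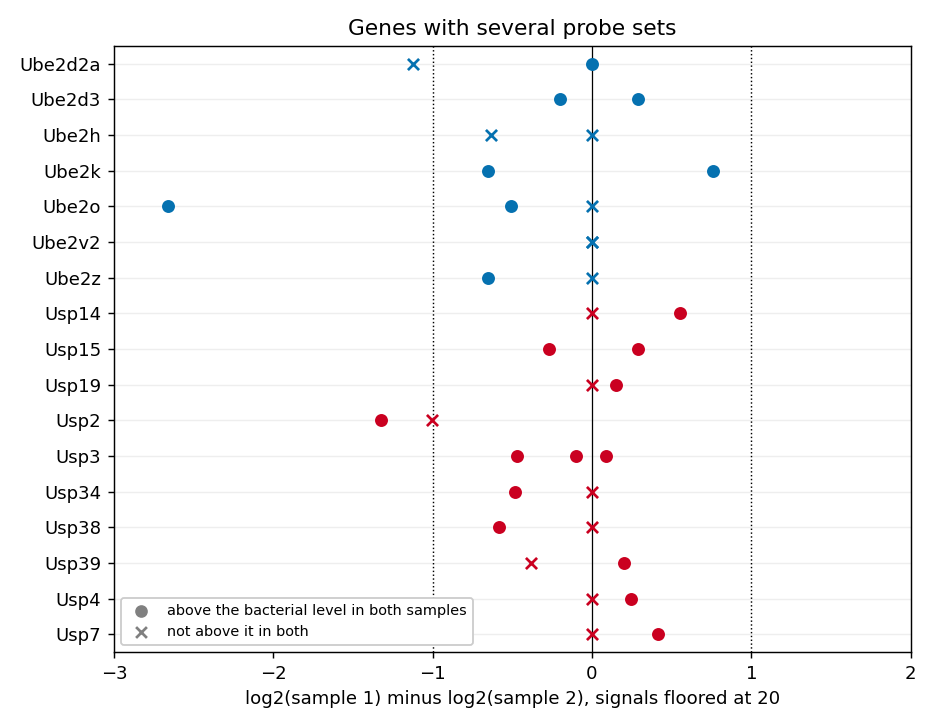
Log2(sample 1) minus log2(sample 2) with signals floored at 20 (x axis) for each probe set of the 17 member genes with several, with filled circles for probe sets above the bacterial level in both samples, crosses for the others, dotted lines at 2-fold, blue for conjugating and red for deubiquitinating enzymes. Probe sets of Ube2k lie on both sides of 0, those of Ube2o range from -2.66 to 0, and both of Usp2 lie at or beyond -1.001.

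Beyond the members, the other parts of the pathway held few shared directions. Of all named genes, 57.0% had at least 1 probe set above the bacterial level in both samples, which is the background of the gene counts below. Among ubiquitin-like modifiers 6 of 8 measured genes were above the level in this way. Of 7 such probe sets 1 was 2-fold or more apart (14.3%, beside 19.9%). It was that of Ubl3, a membrane-anchored ubiquitin-like protein, with 24.3 in sample 1 and 60.3 in sample 2. Sumo3 had 285 in sample 1 and 172 in sample 2. Of 26 other measured ligase genes 21 were above the level, with 2 of 24 probe sets 2-fold or more apart (8.33%, beside 19.9%). Both were higher in sample 2 and belong to the Ariadne ligases, which work beside cullins: Arih1 had 23.98 in sample 1 and 50.1 in sample 2, and Arih2 had 31.3 and 87.4. Another probe set of Arih1, with 17.1 and 13.2, did not show this, and another of Arih2, with 1.08 and 3.27, was above the level in neither sample. Of the other deubiquitinating and SUMO proteases 6 of 7 genes were above the level. Of 7 such probe sets 2 were 2-fold or more apart (28.6%, beside 19.9%), 1 of Psmd14 and 1 of Otud5. Otud5 had 104 in sample 1 and 289 in sample 2 by this probe set, which is of the _f_at kind. By another it had 27.8 and 45.7, and by a further one 9.25 and 9.58, not above the level in sample 1. For the anaphase-promoting complex 8 of 10 genes were above the level, with 3 of 9 probe sets 2-fold or more higher in sample 1 (33.3%, beside 10.5%), 0 of 9 that far higher in sample 2 (beside 9.40%), and a median difference of -0.013. For ubiquitin receptors and the p97 segregase 6 of 8 genes were above the level, with Psmd4 as the 1 of 9 probe sets past 2-fold (11.1%, beside 19.9%).

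**Figure D4:**
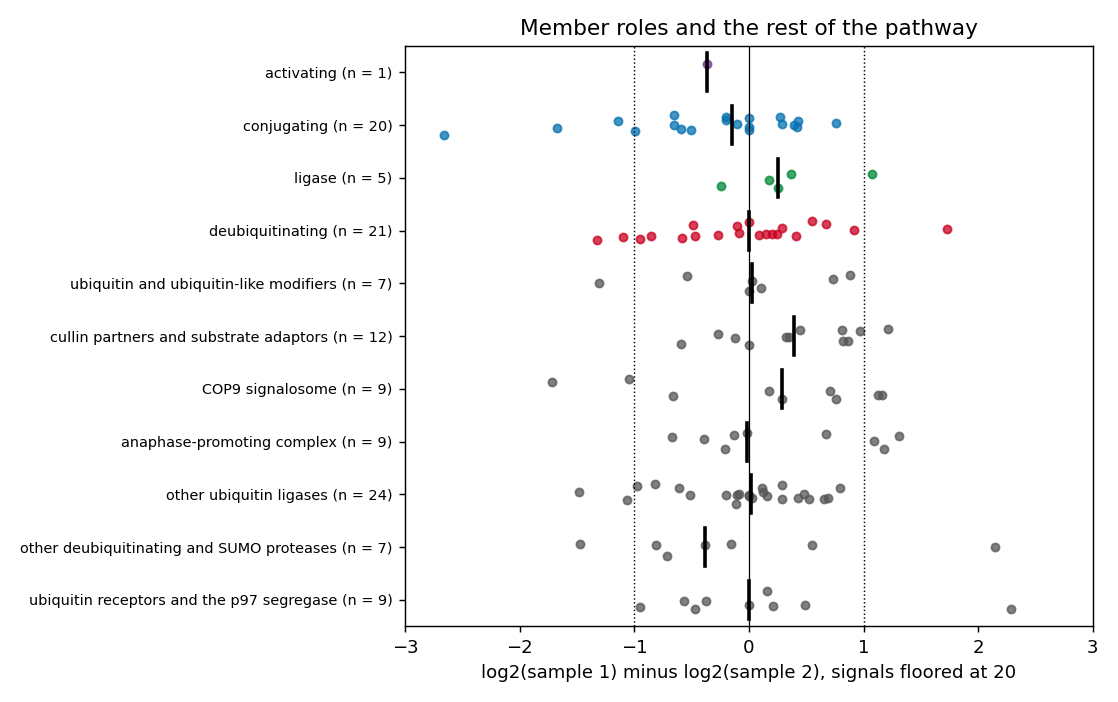
Log2(sample 1) minus log2(sample 2) with signals floored at 20 (x axis) for the member probe sets by role (coloured) and for 7 lists of other pathway genes (grey), for probe sets above the bacterial level in both samples, with the median of each row as a black bar and dotted lines at 2-fold; vertical scatter within a row has no meaning. Medians lie between -0.39 for the other deubiquitinating and SUMO proteases and 0.40 for the cullin partners.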

How the data were processed

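The deposited values were intensities on a linear scale, 1 per probe set, from Affymetrix mouse arrays, per the file headers and values. Software and scaling are not given in the sources used here. Both deposited columns had a mean of 53.94, and medians of 15.9 in sample 1 and 14.45 in sample 2. All 12488 probe sets were quantile-normalized, and 66 control probe sets, 15 of them bacterial, were then left out. Signals were floored at 20, which held 57.8% of values in sample 1 and 57.7% in sample 2. Genes came from the platform annotation. It gave 1 gene for 10833 probe sets, and RefSeq (GRCm38.p6) held all 57 member symbols unchanged. Promoter sequences are RefSeq's, with 43 of the 57 genes in the table. No genome coordinates of probe sets are given. The number of arrays, 2, limits the precision. Members, lists and rules were chosen with earlier results of these data known. All members are named, and of other lists up to 3 genes a direction past 2-fold; Skp1, Sumo3, Anapc11, Cdc16, Vcp, Nedd8 and Isg15 were added for their roles. Alternatives covered the bacterial level, scaling, floor, filter and unit. Python 3.11.15, pandas 2.3.3 and numpy 2.4.6 were used.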

Additional observations from a re-analysis of the deposited data

Results flagged for a closer look

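Probe sets that name several genes were outside the counts. Of 3 with a ubiquitin-conjugating gene among their names, 2 gave a signal above the bacterial level in both samples. A probe set naming Ube2j2 and 1 other gene had 54.5 in sample 1 and 142 in sample 2, a 2.60-fold difference. A probe set naming Ube2l3 among 5 genes had 165 in sample 1 and 138 in sample 2. The other, also naming Ube2j2, had 9.43 in sample 1 and 16.9 in sample 2 and passed the level in sample 2 alone. Which of the named genes gave these signals was not tested.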

How the results depend on the processing

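The count of 47 member probe sets above the bacterial level was 30 with the floor of 20 as the level. With that level at the 50th percentile of the bacterial probe sets it was 62, and at the highest of them 45. With 1 sample alone it was 51 to 58, the higher in sample 2, where the bacterial level is lower. When every probe set of a gene had to pass, 30 of 57 genes (52.6%) did, beside 44.9% of all named genes. The 7 members 2-fold or more apart became 4 with a floor of 32, 11 with no floor, 2 with an offset of 32 and 4 where both signals had to exceed the floor. By construction, a higher floor or an offset shrinks differences of weak signals. The deposited and median-centred scalings gave 8 each, with 3 and 2 of them higher in sample 1. Dropping probe sets named _f_at, _r_at or _i_at, chosen after seeing the data, gave 6. The median difference ran from -0.094 to 0.027 over its alternatives. Of 47 single differences, 0 moved by more than the replicate SD with another scaling. With a floor of 32 this was 9, without a floor 5 and with the offset 3. None past 2-fold changed sign with another scaling. Changes of the floor or the offset cannot reverse a sign. With 1 sample left out no difference can be formed. No paired analysis was possible because there is 1 group. Weak signals near the bacterial level limit what these arrays show.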
